A study of Mus musculus with 20 samples.

Results

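The genes of cholesterol and fatty acid synthesis were followed as a set of 31 genes, chosen by name from the 24391 genes of each count table. The choice was made with earlier results of these data known. Counts of members set beside the shares over all genes are therefore descriptive and no test of the set. The set was read in 4 roles: 8 genes of the branch that leads to isoprenoids (Acat2, Hmgcs1, Mvk, Pmvk, Mvd, Idi1, Fdps and Ggps1), 10 genes of the steps through squalene to sterol (Fdft1, Sqle, Lss, Cyp51, Tm7sf2, Msmo1, Nsdhl, Hsd17b7, Ebp and Dhcr7), 6 genes of regulation and transport (Srebf1, Srebf2, Scap, Insig1, Insig2 and Stard4) and 7 genes of fatty acid and glycerolipid synthesis (Acly, Acaca, Fasn, Elovl6, Scd1, Scd2 and Lpin1). Of these, 30 passed the filter on low counts and were tested in each comparison. The exception was Hmgcs1, the cytosolic HMG-CoA synthase gene, which had 0 counts in every one of the 20 samples. The annotation used by the authors places its 22 exons on 13_random, an unplaced part of mouse chromosome 13 in the build mm9, so its 0 was not read as a level.

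All 20 samples came from E2-10HA, a mouse T cell hybridoma, which is a T cell fused with a tumour line. The H2A.Z guide samples (n = 6) carried lentiCRISPRv2 with guides against H2afv and H2afz, the genes of the histone variant H2A.Z, and the CRISPR control samples (n = 6) carried the vector without guides. Both were selected with puromycin, and the titles of all 6 guide samples carry the same number, though the labels do not say whether they are 1 clone. The wild-type BioNICD samples (n = 2) expressed the bacterial ligase BirA and a biotin-tagged intracellular domain of Notch, called NICD, and the BioNICD DEP samples (n = 2) expressed BirA with a form labelled as the DEP mutant. In the NICD-ER samples a Flag-tagged NICD was joined to an estrogen receptor domain that holds it inactive until 4-hydroxytamoxifen (4-OHT) binds. They were treated for 24 hours with 4-OHT (n = 2) or with its solvent ethanol (n = 2). These 4 NICD groups carried no guides and the CRISPR groups no NICD plasmid. No cells without NICD-ER received 4-OHT, so an effect of 4-OHT itself and of active NICD-ER cannot be told apart. Nothing in the labels gives replicates separate cultures, and the spread behind every p-value may therefore be partly technical.

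Cells build cholesterol from acetyl-CoA through mevalonate, isoprenoids and squalene, and build fatty acids from the same acetyl-CoA. Most enzymes of both routes are switched on by the SREBP transcription factors, the products of Srebf1 and Srebf2. These are made as membrane-bound precursors that the escort protein SCAP carries out of the endoplasmic reticulum for cleavage when sterols are low. INSIG proteins hold SCAP back when sterols are plentiful, and Insig1 is itself an SREBP target. T cells raise this programme when they are activated and divide, since new membrane needs both lipids.

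SREBP binds promoters together with NF-Y, whose motif is the CCAAT box, and the promoters are shown for the member with the largest fitted fall in each of the first 2 comparisons (Lss and Msmo1) and for 2 regulators that fell in all 3 (Insig1 and Srebf2). Each runs from 250 bases before to 50 bases after the gene's start in RefSeq (build GRCm38.p6), a different build from that of the counts. In that build the windows are chr10:76531355-76531654, plus strand for Lss, chr8:64733529-64733828, minus strand for Msmo1, chr5:28071162-28071461, plus strand for Insig1 and chr15:82147019-82147318, plus strand for Srebf2. Capitals mark the CCAAT box, read as ATTGG where it lies on the other strand.
Lss: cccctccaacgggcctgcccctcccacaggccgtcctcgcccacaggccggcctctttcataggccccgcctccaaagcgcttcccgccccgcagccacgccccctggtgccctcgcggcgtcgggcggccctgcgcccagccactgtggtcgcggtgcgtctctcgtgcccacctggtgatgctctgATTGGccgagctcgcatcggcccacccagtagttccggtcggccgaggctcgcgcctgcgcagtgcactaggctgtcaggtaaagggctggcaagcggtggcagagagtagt
Msmo1: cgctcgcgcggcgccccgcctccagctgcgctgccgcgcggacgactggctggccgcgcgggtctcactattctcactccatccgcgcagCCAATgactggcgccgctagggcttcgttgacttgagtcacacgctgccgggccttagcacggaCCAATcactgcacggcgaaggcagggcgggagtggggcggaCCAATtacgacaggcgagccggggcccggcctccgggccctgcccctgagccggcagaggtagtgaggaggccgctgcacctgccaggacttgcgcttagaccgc
Insig1: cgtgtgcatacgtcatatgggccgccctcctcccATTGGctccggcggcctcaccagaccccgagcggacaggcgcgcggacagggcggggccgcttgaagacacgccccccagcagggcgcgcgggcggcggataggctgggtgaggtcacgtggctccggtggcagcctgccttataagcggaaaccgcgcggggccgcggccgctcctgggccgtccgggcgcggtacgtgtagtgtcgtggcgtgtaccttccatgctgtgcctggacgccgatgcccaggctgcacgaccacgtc
Srebf2: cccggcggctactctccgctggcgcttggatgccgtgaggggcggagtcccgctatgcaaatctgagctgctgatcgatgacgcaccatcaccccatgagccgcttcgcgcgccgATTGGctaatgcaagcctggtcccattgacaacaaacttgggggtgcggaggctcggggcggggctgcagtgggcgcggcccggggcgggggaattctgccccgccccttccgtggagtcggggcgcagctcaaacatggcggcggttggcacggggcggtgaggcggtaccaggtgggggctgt
Msmo1 holds 3 CCAAT boxes in this window and the other three genes hold 1 each. Of the 31 members, 25 were in the RefSeq promoter table. Some genes have more than 1 start and so more than 1 window, and a gene was counted where any of its windows held the motif. The CCAAT box, searched as CCAAT on both strands, was in a window of 20 of these 25 genes, or 80%, against 41.1% of all 27025 genes in the table. The GC box, searched as GGGCGG on both strands, was in 19 of the 25, or 76%, against 38.2% of all genes. The sterol regulatory element TCACNCCAC was in 1 of the 25 (Hmgcs1), against 1.44% of all genes, and the palindromic E-box TCACGTGA in none, against 1.12%. Counted by window, the CCAAT box was in 21 of 33 member windows, against 37.4% of all 32851 windows. The GC box was in 23 of the 33, against 35.7%. Windows were counted for each motif on its own, whether or not another motif overlapped it. Only exact matches were counted (N stands for any base), so a site that differs by 1 letter was missed. The shares over all genes include genes not expressed in these cells. A match gives letters only, and the window says nothing about sites outside it.

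Total counts ran from 13309111 to 18344298 with the guides, from 10704131 to 15440584 in the control and from 16371601 to 48238324 in the NICD samples. The largest total was that of wild-type BioNICD replicate 1, where the total and the count of every member were even numbers. Whether its reads were counted more than once was not tested. Its true depth may be lower, and its counting noise larger, than the tests take them to be. Both guide targets were lower in every guide sample, H2afz at 4.55 to 5.70 CPM (counts scaled to library size, with TMM factors over all 20 samples) against 24.7 to 31 CPM and H2afv at 27.3 to 56.6 CPM against 116 to 149 CPM. The labels of CRISPR replicates 1 and 2 are laid out differently from those of replicates 3 to 6, and these are called set 1 and set 2. Guide replicates 1 and 2 differed by a mean chi-square of 32.0 per gene, against 5.73 for control replicates 1 and 2. In set 2, guide replicates 3 and 4 differed from 5 and 6 by 41.4 to 57.1, and control replicate 6 from 3 to 5 by 36.2 to 39.5, while the other pairs of set 2 gave at most 4.64. The ethanol pair gave 21.3 and the other NICD pairs at most 4.48. Summed fibroblast markers stood at 36.3 CPM in guide replicate 1 and at 30.9 CPM in control replicate 1, and at no more than 0.284 CPM in any other sample. Rn45s, the ribosomal RNA precursor, took 6.93% and 7.67% of counts in guide replicates 6 and 5 and 6.73% in control replicate 6, against at most 4.53% in the other 17 samples. Of 11 T cell markers, 10 had counts in most samples, and Cd8a reached at most 0.0324 CPM. The B cell, hepatocyte and adipocyte markers reached at most 0.46 CPM each.

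Scd2 (mm9 chr19:44368166-44381352, 6 exons), a stearoyl-CoA desaturase gene, was the highest member in every group. In the control it stood at 6358 ± 1026 CPM (SD, n = 6), or 1166 CPM per kilobase of exon. Sqle, squalene epoxidase, came next at 479.8 CPM per kilobase, followed by Insig1 at 259, Msmo1 at 253, Fdps at 225 and Cyp51 at 212 CPM per kilobase. The low end held Acaca at 12.6, Ggps1 at 11.1 and Elovl6 at 10.5 CPM per kilobase. Idi1, isopentenyl-diphosphate isomerase, had only 0.772 CPM per kilobase and passed no test in any comparison.

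Summed over all members, the level was 11126 to 13084 CPM with the guides and 15548 to 18499.6 CPM in the control. It was 10449 and 10640.5 CPM with wild-type BioNICD against 14985 and 15076 CPM with the DEP mutant, and 9165 and 9378 CPM with 4-OHT against 10105 and 10204 CPM with ethanol. In each pair the groups did not overlap, and the first group was the lower one. Scd2 was a large part of these sums, and without it the sums were 7324 to 7485 against 10004 to 10685 CPM for the guides and control, 5761 and 5844 against 8761 and 8805 CPM for BioNICD wild type and DEP, and 5512 and 5580.4 against 6370.1 and 6503 CPM for 4-OHT and ethanol.

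**Figure D1:**
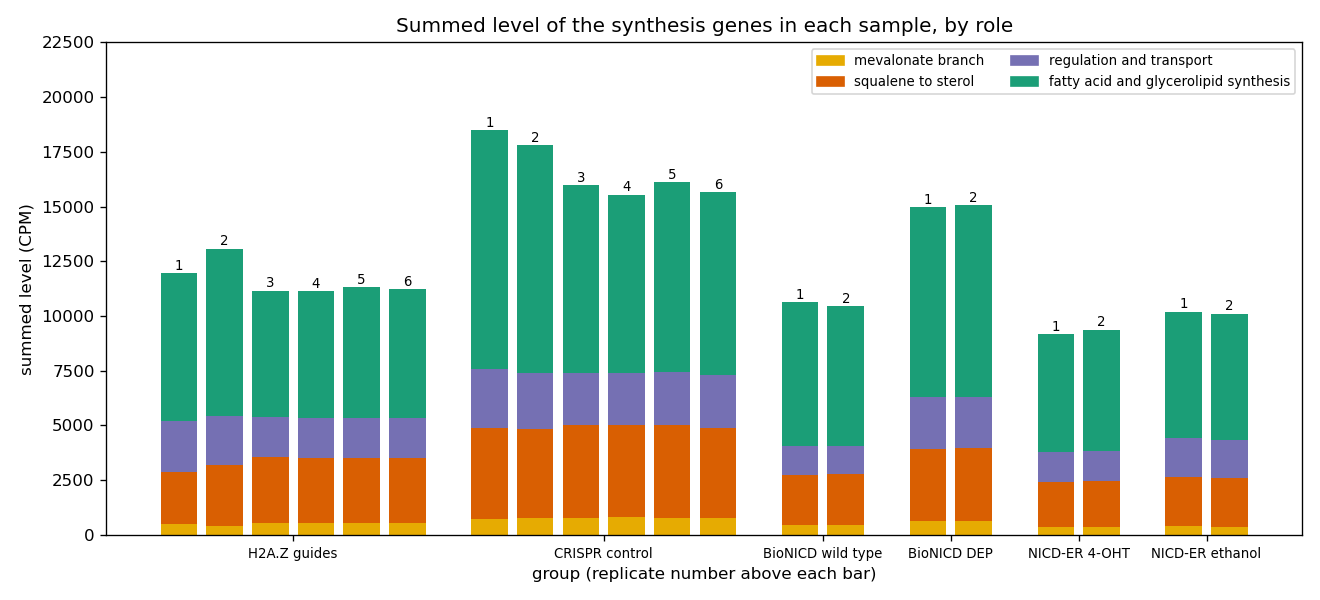
Stacked bars give the summed level in CPM of the synthesis genes in each of the 20 samples, coloured by role, with the replicate number above each bar and the groups in pairs from left to right. The guide samples reach 11126 to 13084 CPM beside 15548 to 18499.6 CPM in the control, and the 4 NICD-ER samples lie between 9165 and 10204 CPM.

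With the H2A.Z guides, 25 of the 30 tested members were lower than in the control and 0 were higher, at an adjusted p under 0.05 in edgeR's quasi-likelihood test (Benjamini-Hochberg over all genes tested). In such bulk samples, fewer cells that express a gene and less RNA per cell cannot be told apart. DESeq2 also called 25 lower and 0 higher. Of all 10662 genes tested, 32.7% were lower and 31.8% higher. The median log2 fold change was -0.53 over the members and -0.01 over all genes. The largest fall was that of Lss, lanosterol synthase, at 0.368 times the control level. In 19 of the 30 members every guide sample lay below every control sample, as in 16.5% of all genes tested. The 5 members without a call were Mvd, Idi1, Ebp, Scap and Elovl6. Within set 1 alone 19 members were lower and 0 higher, and within set 2 alone 26 were lower and 1, Scap, was higher. Without control replicate 1 and guide replicate 1, the pair with fibroblast marker counts, 26 were lower and 0 higher, and without the 3 samples highest in Rn45s 25 and 0. The summed T cell markers were 1786 to 2664 CPM with the guides and 1483 to 1783 CPM in the control, and the summed myeloid markers, nearly all from Cd68, 4.76 to 11.4 and 16.1 to 36.9 CPM. Of 10 tested T cell markers, 5 were higher and 3 lower. The part of the T cell and myeloid markers in the members' differences was not tested.

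**Figure D2:**
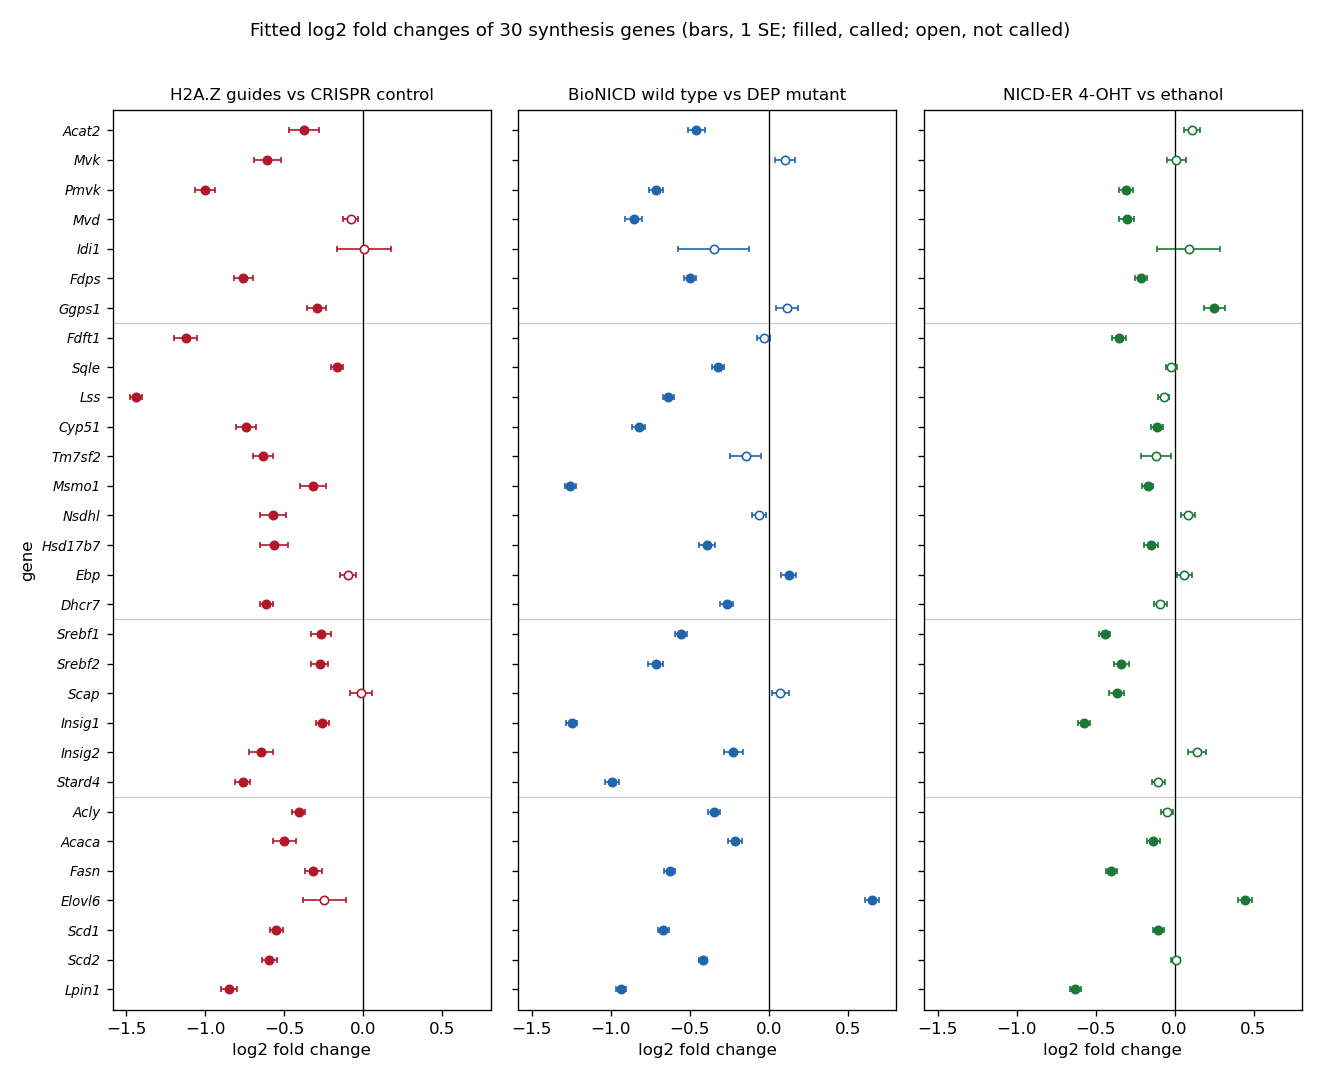
Points give the fitted log2 fold change of each of the 30 tested members (down the page, by role) in the 3 main comparisons, with bars of 1 SE, filled where the adjusted p was under 0.05. The points of the guide and wild-type BioNICD panels lie mostly left of 0, down to -1.44 for Lss and -1.26 for Msmo1, while the 4-OHT panel spans -0.63 for Lpin1 to 0.44 for Elovl6.

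Of the 7 tested genes of the isoprenoid branch, 5 fell with the guides. Pmvk (mm9 chr3:89263040-89272931, 6 exons), phosphomevalonate kinase, stood at 57.4 to 99.5 CPM (median 94.9) with the guides and at 144 to 195 CPM (median 177) in the control (log2 fold change -1.0, SE 0.0612, adjusted p = 7.85e-10). Fdps, which makes farnesyl diphosphate, stood at 156 to 215 CPM (median 201) with the guides and at 320.1 to 346 CPM (median 325) in the control (log2 fold change -0.76, SE 0.0589, adjusted p = 1.33e-08). Mvk, mevalonate kinase, stood at 22.8 to 35.8 CPM (median 32.3) with the guides and at 44.2 to 50.3 CPM (median 47.4) in the control (log2 fold change -0.61, SE 0.0843, adjusted p = 1.03e-05). In all 3 genes the groups did not overlap, and guide replicate 2 was the lowest guide sample. Smaller falls were fitted for Acat2, an acetyl-CoA acetyltransferase gene, at -0.38, and for Ggps1, which makes geranylgeranyl diphosphate, at -0.30. Mvd, mevalonate diphosphate decarboxylase, differed by -0.08 (adjusted p = 0.122, or -0.59 less the median of its chromosome 8) and Idi1 by 0.00 (adjusted p = 0.989).

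Of the steps through squalene to sterol, 9 of 10 genes fell. Lss (mm9 chr10:75994350-76019884, 22 exons), which closes the sterol ring, stood at 206 to 304 CPM (median 297) with the guides and at 594 to 805 CPM (median 772) in the control (log2 fold change -1.44, SE 0.0386, adjusted p = 4.35e-14). Fdft1 (mm9 chr14:63763988-63798415, 10 exons), squalene synthase, stood at 85.2 to 104 CPM (median 95.4) with the guides and at 186 to 244 CPM (median 195) in the control (log2 fold change -1.13, SE 0.0722, adjusted p = 1.39e-09). Exons of Ctsb on the other strand cover 20.9% of the exon length of Fdft1, and 6.02% of that of Lss lies under 4930483K19Rik, also on the other strand, so reads of these partners cannot be told apart from theirs. Cyp51, lanosterol demethylase, stood at 411 to 609 CPM (median 605) with the guides and at 887 to 947 CPM (median 927) in the control (log2 fold change -0.74, SE 0.0629, adjusted p = 3.98e-08). Dhcr7, the last reductase of cholesterol synthesis, stood at 85.6 to 98.9 CPM (median 95) with the guides and at 138 to 150.4 CPM (median 141) in the control (log2 fold change -0.61, SE 0.0410, adjusted p = 2.23e-09). In these 4 genes no guide sample reached the control range. On chromosome 5, Cyp51 changed by -0.41 and Mvk by -0.28 less the median of that chromosome, -0.33.

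Tm7sf2, a sterol reductase gene, stood at 13.5 to 16.8 CPM (median 14.4) with the guides and at 20.8 to 27.0 CPM (median 21.8) in the control (log2 fold change -0.63, SE 0.0628, adjusted p = 2.33e-07). Nsdhl, a sterol dehydrogenase gene, stood at 58.0 to 104 CPM (median 92.0) with the guides and at 122 to 129 CPM (median 125) in the control (log2 fold change -0.57, SE 0.0824, adjusted p = 1.5e-05). Hsd17b7, a keto-reductase of sterol demethylation, stood at 70.0 to 125 CPM (median 119) with the guides and at 145 to 170.2 CPM (median 155) in the control (log2 fold change -0.57, SE 0.0879, adjusted p = 3.24e-05). The lowest guide sample of Nsdhl and Hsd17b7 was replicate 1, at 58.0 and 70.0 CPM, and the groups of all 3 genes stayed apart. Msmo1, methylsterol monooxygenase, fell by 0.32 on the log2 scale, with 255 CPM in guide replicate 1 and 391 CPM or more in the other 5 guide samples. The median of all genes on chromosome 8, where Msmo1 lies, was 0.51, and less this median its change was -0.83. Sqle fell by 0.17, and Ebp, the sterol isomerase, differed by -0.10 (adjusted p = 0.106).

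Among the regulators, the 2 SREBP genes fell only slightly and their groups overlapped. Srebf1 (mm9 chr11:60012591-60034106, 19 exons) stood at 266 to 501 CPM (median 281) with the guides and at 344 to 471 CPM (median 358) in the control (log2 fold change -0.27, SE 0.0632, adjusted p = 0.0016). Srebf2 (mm9 chr15:81977699-82035390, 19 exons) stood at 627 to 879 CPM (median 666) with the guides and at 809.6 to 902 CPM (median 838) in the control (log2 fold change -0.28, SE 0.0537, adjusted p = 0.000287). Insig1 (mm9 chr5:28397952-28405202, 5 exons) stood at 501 to 749 CPM (median 518) with the guides and at 590.2 to 808 CPM (median 649) in the control (log2 fold change -0.26, SE 0.0409, adjusted p = 3.7e-05). Guide replicate 1 was the highest guide sample of both SREBP genes, at 501 and 879 CPM, and both set 1 guide samples of Insig1 lay above the 4 set 2 controls. Within set 1 their fitted log2 fold changes were -0.06, -0.12 and -0.18, and fits to set 1 alone gave adjusted p = 0.787, 0.51 and 0.232. Within set 2 they were -0.37, -0.36 and -0.30. With the guides the median of all genes on chromosome 5, where Insig1 lies, was -0.33, and less this median its change was 0.070. The falls of these 3 regulators were thus called over both sets, and not in set 1 alone.

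Insig2, the second INSIG gene, stood at 24.3 to 36.7 CPM (median 28.6) with the guides and at 42.4 to 50.1 CPM (median 44.4) in the control (log2 fold change -0.65, SE 0.0776, adjusted p = 2.11e-06), with no overlap. Scap, the escort gene, stood at 61.0 to 95.6 CPM (median 92.6) with the guides and at 78.9 to 88.2 CPM (median 83.2) in the control (log2 fold change -0.02, SE 0.0692, adjusted p = 0.86). Stard4, a sterol transport gene, stood at 183 to 277 CPM (median 263) with the guides and at 355 to 452 CPM (median 429) in the control (log2 fold change -0.76, SE 0.0478, adjusted p = 9.99e-10). Of the 6 regulators, Stard4 and Insig2 were thus the ones that fell by over 0.5 over both sets. In an edgeR fit to set 1 alone, the log2 fold change of Insig2 was -0.41 and missed the threshold (adjusted p = 0.0638). Within set 2 it was -0.77.

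On the fatty acid side 6 of 7 genes fell. Lpin1 (mm9 chr12:16542475-16596576, 22 exons), which makes the diacylglycerol of glycerolipids, stood at 238 to 325 CPM (median 245) with the guides and at 460.4 to 493 CPM (median 467) in the control (log2 fold change -0.85, SE 0.0522, adjusted p = 8.11e-10). Scd2 stood at 3702 to 5666 CPM (median 3810.1) with the guides and at 5505 to 7814 CPM (median 5826) in the control (log2 fold change -0.60, SE 0.0466, adjusted p = 1.45e-08). Its partner gene Scd1 stood at 265 to 377 CPM (median 272) with the guides and at 374 to 543 CPM (median 406) in the control (log2 fold change -0.55, SE 0.0405, adjusted p = 7.01e-09). For Lpin1 the groups did not overlap. For both desaturases guide replicate 2 reached into the range of the set 2 controls, and within each set every guide sample was below every control. Smaller falls were fitted for Acaca, acetyl-CoA carboxylase (-0.50), Acly, ATP citrate lyase (-0.41), and Fasn, fatty acid synthase (-0.32). Elovl6, a fatty acid elongase, missed the threshold at -0.25 (adjusted p = 0.131).

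The submission sets were compared gene by gene, as the log2 fold change in set 2 minus that in set 1. Of 30 members, 8 had a higher value in set 2 and 1 a lower one, against 8.19% and 7.49% of all genes tested. Elovl6 differed most, at -0.90 in set 1 and 0.07 in set 2 (adjusted p of the difference 0.000925). Guide replicates 1 and 2 had 35.1 and 51.4 CPM of it, against 78.9 and 82.8 CPM in controls 1 and 2, while in set 2 the guides had 55.5 to 58.7 CPM and the control 46.8 to 56.8 CPM. Acat2 fell by 0.84 in set 1 and by 0.15 in set 2. Nsdhl fell by 0.94 and 0.40, Hsd17b7 by 0.94 and 0.39, Fdft1 by 1.46 and 0.96, Acaca by 0.78 and 0.37, and Cyp51 by 0.98 and 0.62. For Hsd17b7 the difference lost its call without control replicate 1 (adjusted p = 0.061) and without the 3 samples highest in Rn45s (adjusted p = 0.0899). Scap was lower in set 1 (-0.33) and higher in set 2 (0.13, adjusted p = 0.0025 in a fit to set 2 alone, where the value was 0.14). Lpin1 was the member that went the other way, -0.65 in set 1 and -0.95 in set 2. The 8 and 1 became 5 and 1 without control replicate 1, 7 and 0 without control replicate 2, 12 and 4 without guide replicate 1, 12 and 3 without guide replicate 2, and 5 and 0 without the 3 samples highest in Rn45s. The guide target H2afv stood at 56.6 and 44.8 CPM in set 1 guide samples and at 27.3 to 29.9 CPM in set 2. In the controls it stood at 128 and 149 CPM in set 1 and at 116 to 129 CPM in set 2. Summed T cell markers were 2664 and 2648 CPM in set 1 guide samples and 1786 to 1886 CPM in set 2. In the controls they were 1688 and 1783 CPM, and 1483 to 1576 CPM. The sets also differ in fibroblast marker counts and in Rn45s. The part of all these in the members' differences was not tested.

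**Figure D3:**
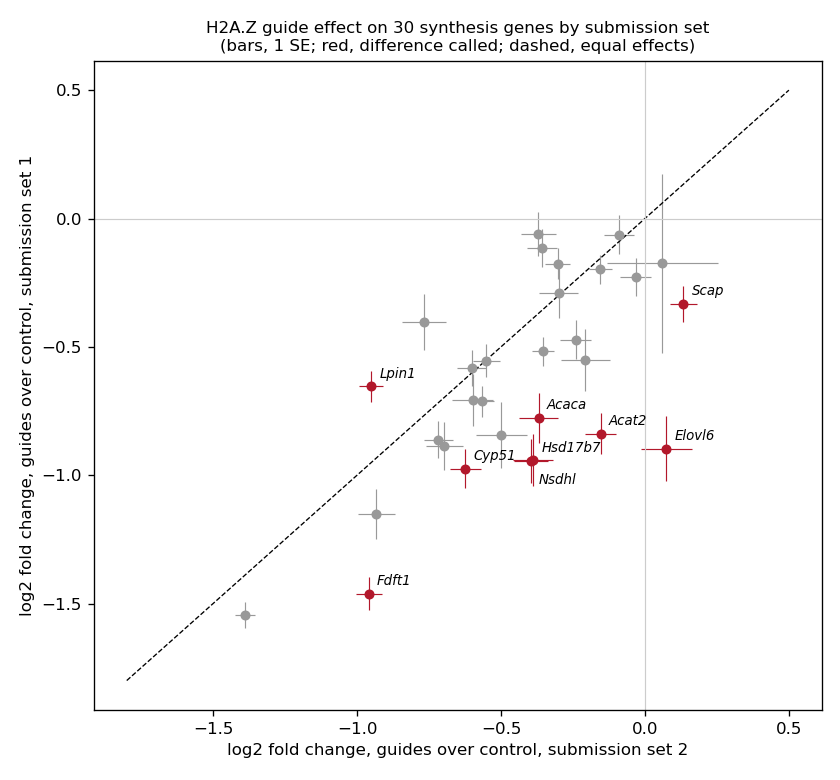
Each point is 1 of the 30 tested members, with its log2 fold change of guides over control in set 2 across and in set 1 up, bars of 1 SE and a dashed line of equal effects. The red, named points are the 9 members whose difference was called, 8 of them below the line and Lpin1 above it.

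With wild-type BioNICD, most members were lower than with the DEP mutant, in all 4 roles. Against the DEP mutant 21 of 30 members were lower and 2 higher in edgeR's test. The shares over all 12499 genes were 33.6% lower and 32.0% higher, and the medians were -0.40 over the members and -0.02 over all genes. Msmo1 and Insig1 fell furthest, to 0.418 and 0.421 times the level with the DEP mutant. The higher ones were Elovl6 and Ebp.

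Of the regulators 5 of 6 fell. Insig1 had 379.8 and 368 CPM with wild-type BioNICD, against 883 and 873 CPM with the DEP mutant (log2 fold change -1.25, SE 0.0366, adjusted p = 7.07e-19). Srebf2 had 456 and 436 CPM with wild-type BioNICD, against 741 and 706 CPM with the DEP mutant (log2 fold change -0.72, SE 0.0459, adjusted p = 2.67e-12). Srebf1 had 223 and 215 CPM with wild-type BioNICD, against 323 and 314 CPM with the DEP mutant (log2 fold change -0.56, SE 0.0361, adjusted p = 3.26e-12). The replicates of each group lay close together and far from the other group. Stard4 had 155 and 151 CPM with wild-type BioNICD, against 299.7 and 300.3 CPM with the DEP mutant (log2 fold change -0.99, SE 0.0432, adjusted p = 1.76e-15). Insig2 had 34.9 and 35.4 CPM with wild-type BioNICD, against 38.2 and 42.5 CPM with the DEP mutant (log2 fold change -0.22, SE 0.0619, adjusted p = 0.00288), and without DEP replicate 2 its adjusted p was 0.111. Scap had 80.8 and 75.4 CPM with wild-type BioNICD, against 75 and 72.4 CPM with the DEP mutant and missed the threshold (log2 fold change 0.07, adjusted p = 0.244). The escort gene thus gave no call while both SREBP genes and both INSIG genes did.

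In the isoprenoid branch 4 of 7 tested genes fell. Mvd (mm9 chr8:124957496-124967322, 11 exons) had 50.6 and 56.0 CPM with wild-type BioNICD, against 95.5 and 94.0 CPM with the DEP mutant (log2 fold change -0.86, SE 0.0514, adjusted p = 7.86e-13). Pmvk had 86.9 and 88.6 CPM with wild-type BioNICD, against 138 and 146 CPM with the DEP mutant (log2 fold change -0.72, SE 0.0428, adjusted p = 7.48e-13). Fdps had 181 and 183 CPM with wild-type BioNICD, against 258 and 250.4 CPM with the DEP mutant (log2 fold change -0.50, SE 0.0368, adjusted p = 3.25e-11). In all 3 genes the replicates of a group differed by far less than the groups did. Acat2 fell by 0.46. Mvk at 0.10, Ggps1 at 0.11 and Idi1 at -0.35 gave no call.

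In the sterol steps 6 of 10 genes fell and Ebp rose. Msmo1 (mm9 chr8:67196942-67212375, 6 exons) had 189 and 193 CPM with wild-type BioNICD, against 454 and 449 CPM with the DEP mutant (log2 fold change -1.26, SE 0.0355, adjusted p = 3.37e-19). Cyp51 had 517 and 516 CPM with wild-type BioNICD, against 875 and 931 CPM with the DEP mutant (log2 fold change -0.83, SE 0.0392, adjusted p = 9.21e-15). Lss had 278 and 274 CPM with wild-type BioNICD, against 433 and 416 CPM with the DEP mutant (log2 fold change -0.64, SE 0.0348, adjusted p = 1.27e-13). Both Cyp51 and Msmo1 work on the removal of methyl groups from lanosterol. Hsd17b7 fell by 0.39, Sqle by 0.32 and Dhcr7 by 0.27. Ebp had 82.3 and 87.0 CPM with wild-type BioNICD, against 76.8 and 76.0 CPM with the DEP mutant, a small rise of 0.13 (adjusted p = 0.0241). The count of higher members, 2 with Elovl6, became 1 under upper quartile scaling, in a model over all 20 samples, without wild-type replicate 2 and without DEP replicate 1. Fdft1, which fell by 1.13 with the guides, differed by -0.03 (adjusted p = 0.501), and Nsdhl (-0.07) and Tm7sf2 (-0.15) gave no call. The median of all genes on chromosome X was -0.17, and less this median Ebp changed by 0.30 and Nsdhl by 0.11. On chromosome 14 the median was 0.12, and less this median Fdft1 changed by -0.16.

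All 7 genes of fatty acid and glycerolipid synthesis were called, 6 lower and Elovl6 higher. Lpin1 had 256 and 252 CPM with wild-type BioNICD, against 484 and 476 CPM with the DEP mutant (log2 fold change -0.94, SE 0.0330, adjusted p = 2.71e-17). Scd1 had 261 and 247 CPM with wild-type BioNICD, against 393 and 406 CPM with the DEP mutant (log2 fold change -0.67, SE 0.0356, adjusted p = 8.37e-14). Fasn had 511 and 502 CPM with wild-type BioNICD, against 772 and 776 CPM with the DEP mutant (log2 fold change -0.63, SE 0.0359, adjusted p = 2.98e-13). For these the wild-type samples were the lower pair. Elovl6 (mm9 chr3:129235304-129341411, 5 exons), which lengthens the palmitate made by Fasn, had 106 and 107 CPM with wild-type BioNICD, against 65.5 and 67.8 CPM with the DEP mutant (log2 fold change 0.65, SE 0.0462, adjusted p = 1.72e-11). It was the one member of its role with the wild-type samples above the mutant ones. Scd2 fell by 0.42, Acly by 0.35 and Acaca by 0.21. The summed myeloid markers also differed, at 105 and 108 CPM with wild-type BioNICD and 24.5 and 28.3 CPM with the DEP mutant. These sums came from Itgam and Cd68, while Lyz2, Csf1r and Cd14 stayed at or below 1.17 CPM in every sample. The summed T cell markers were 1964 and 2009 against 1598 and 1616 CPM. Of 10 tested T cell markers 6 were higher and 1 lower, against 32.0% and 33.6% of all genes. The part of the T cell and myeloid markers in the members' differences was not tested.

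**Figure D4:**
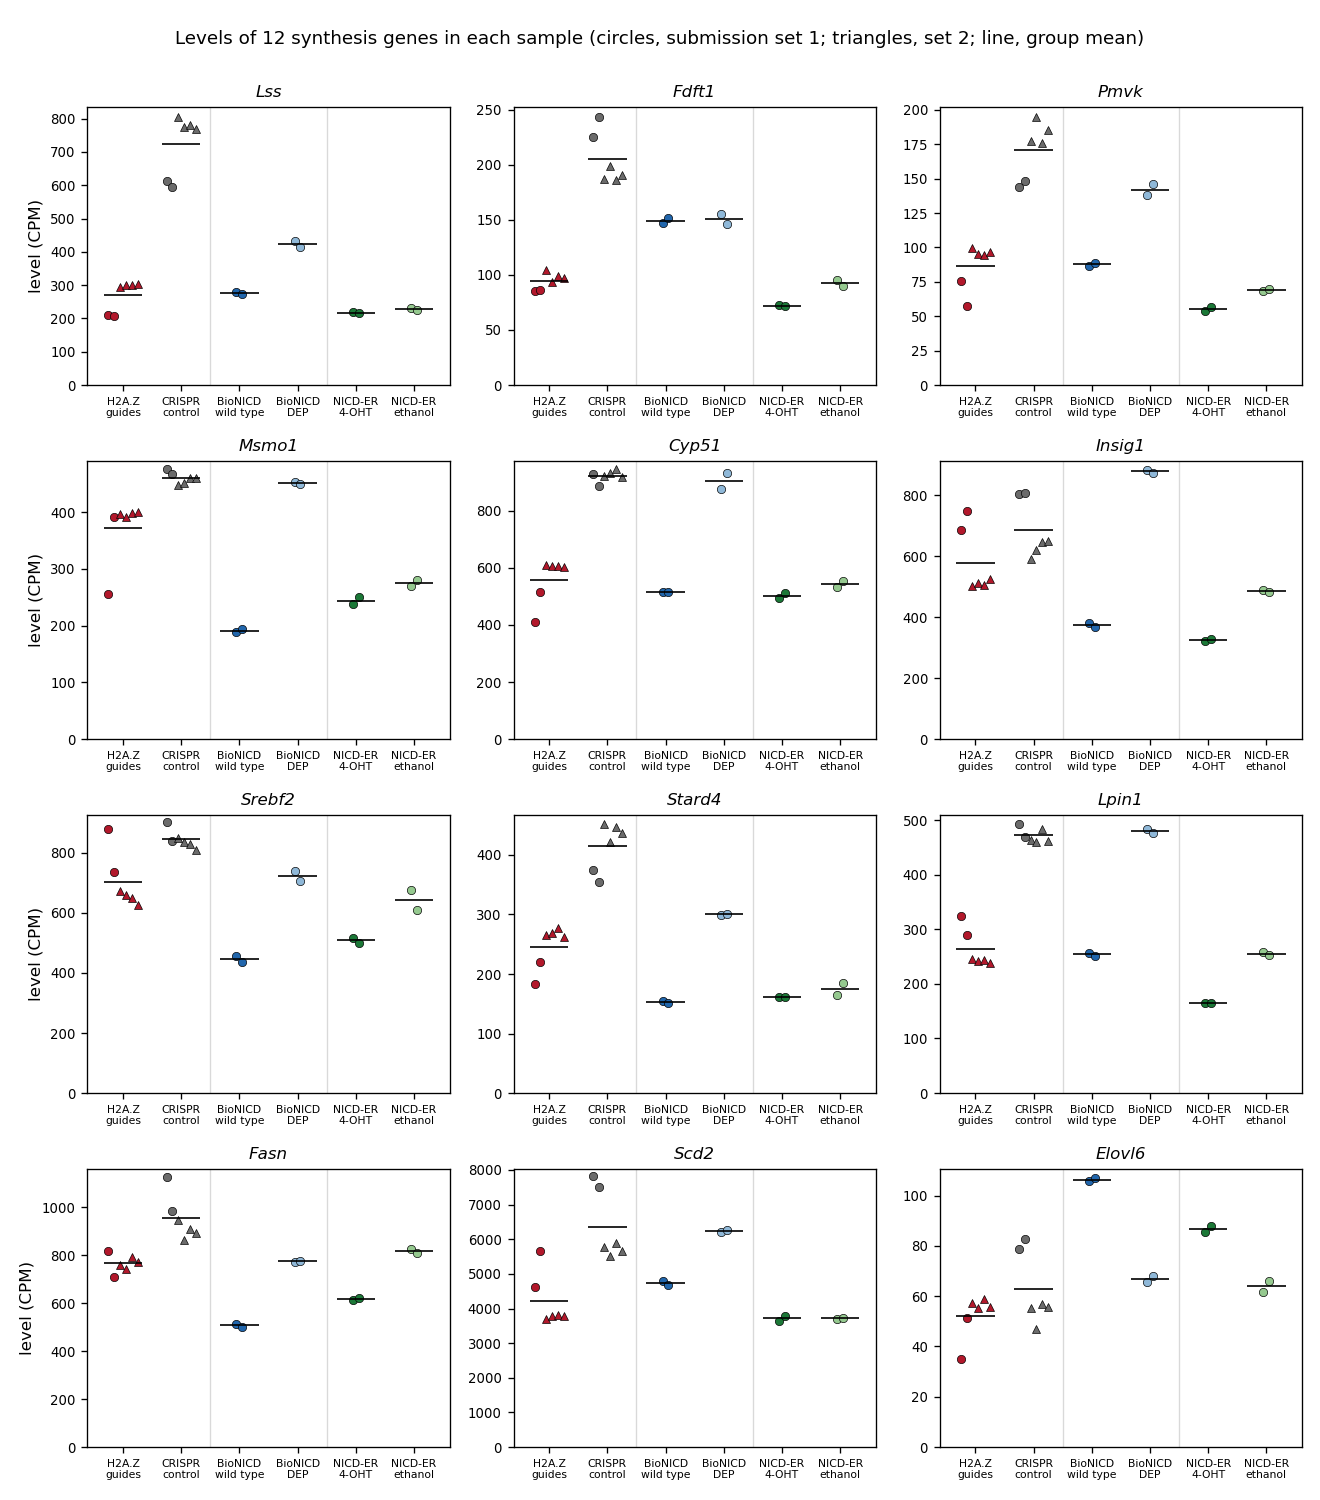
Each panel gives the level in CPM of 1 of 12 members in every sample (circles for set 1 and the NICD samples, triangles for set 2), with the groups in pairs from left to right and a line at the group mean. The wild-type BioNICD samples stand at 379.8 and 368 CPM of Insig1 beside 883 and 873 CPM with the DEP mutant, and Elovl6 is the panel where the wild-type BioNICD and the 4-OHT samples stand above their partners.

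After 24 hours of 4-OHT in NICD-ER cells, 15 of 30 members were lower than with ethanol and 2 were higher in edgeR's test, with mostly small changes. Over all 12499 genes 17.2% were lower and 19.0% higher. The medians were -0.11 over the members and 0.00 over all genes. The summed T cell markers were 1928 and 1977 CPM with 4-OHT and 1884 and 1923 CPM with ethanol. Of 10 tested T cell markers, though, 4 were lower and 1 higher, with a median log2 fold change of -0.11. Leaving out 1 sample at a time gave 11 to 14 lower members, and 1 higher one without 4-OHT replicate 2 or ethanol replicate 2. Lpin1 and Insig1 fell furthest.

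Lpin1 had 165 and 165 CPM with 4-OHT, against 258 and 253 CPM with ethanol (log2 fold change -0.63, SE 0.0332, adjusted p = 2.77e-13). Insig1 had 323 and 327 CPM with 4-OHT, against 487 and 483 CPM with ethanol (log2 fold change -0.57, SE 0.0362, adjusted p = 6.94e-12). These were the 2 members that fell by over 0.5. Srebf1 had 232 and 236 CPM with 4-OHT, against 329 and 309.8 CPM with ethanol (log2 fold change -0.44, SE 0.0353, adjusted p = 4.99e-10). Srebf2 had 517 and 499.9 CPM with 4-OHT, against 677 and 610.2 CPM with ethanol (log2 fold change -0.34, SE 0.0455, adjusted p = 2.62e-06). Scap had 79.8 and 76.6 CPM with 4-OHT, against 106 and 96.4 CPM with ethanol (log2 fold change -0.37, SE 0.0484, adjusted p = 1.84e-06). Both SREBP genes and their escort gene were thus lower with 4-OHT, and no replicate crossed into the other group. Insig2 had 37.4 and 37.0 CPM with 4-OHT, against 33.5 and 34.0 CPM with ethanol, a difference of 0.14 (adjusted p = 0.0591), and Stard4 differed by -0.10 (adjusted p = 0.0676). Ethanol replicates 1 and 2 of Srebf2 differed by more than the 4-OHT replicates did, and without ethanol replicate 1, which stood apart in Lars2, 14 members were lower and 2 higher.

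Of the enzymes, Fasn fell by 0.40, Fdft1 by 0.35, Pmvk by 0.31, Mvd by 0.30 and Fdps by 0.21. Smaller falls were fitted for Msmo1 (-0.17), Hsd17b7 (-0.15), Acaca (-0.13), Cyp51 (-0.11) and Scd1 (-0.10). Elovl6 rose, with 85.5 and 87.9 CPM with 4-OHT, against 61.8 and 65.9 CPM with ethanol (log2 fold change 0.44, SE 0.0440, adjusted p = 2.09e-08). Ggps1 rose too, with 26.9 and 27.6 CPM with 4-OHT, against 24.0 and 21.9 CPM with ethanol (log2 fold change 0.25, SE 0.0679, adjusted p = 0.00523). Scd2 had 3654 and 3798 CPM with 4-OHT, against 3701 and 3735 CPM with ethanol and Sqle had 714 and 727 CPM with 4-OHT, against 744 and 719 CPM with ethanol, with log2 fold changes of 0.01 (SE 0.0261) and -0.02 (SE 0.0358). The 2 most abundant members per kilobase thus gave no call with 4-OHT, where both fell with wild-type BioNICD. The other members without a call were Acat2, Mvk, Idi1, Lss, Tm7sf2, Nsdhl, Ebp, Dhcr7 and Acly, between -0.12 for Tm7sf2 and 0.11 for Acat2.

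The difference between the 2 NICD comparisons was itself tested, as the NICD-ER log2 fold change minus the BioNICD one. It was higher in 19 of 30 members and lower in 3, against 26.4% and 25.1% of all genes. The largest were Msmo1 at 1.09 (adjusted p = 1.62e-14), Stard4 at 0.89, Cyp51 at 0.72, Insig1 at 0.67, Acat2 at 0.57 and Lss at 0.57. A positive value here means a smaller fall with 4-OHT, or none, than with wild-type BioNICD. The 3 lower ones were Scap (-0.44), Fdft1 (-0.32) and Elovl6 (-0.21). Scap and Fdft1 fell with 4-OHT and gave no call with BioNICD, and Elovl6 rose less with 4-OHT. Srebf1 fell by 0.44 with 4-OHT and by 0.56 with BioNICD, and the difference missed the threshold (0.11, SE 0.0503, adjusted p = 0.0625). It was called without DEP replicate 2 (adjusted p = 0.0465), without ethanol replicate 1 (adjusted p = 0.0159) and under upper quartile scaling (adjusted p = 0.0485). The 2 comparisons differ in plasmid and treatment, and the summed members stood at 10105 and 10204 CPM with ethanol and at 14985 and 15076 CPM with the DEP mutant.

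The groups set against each other in the 3 main comparisons share no samples. The 2 NICD comparisons came from the same fit over 8 samples, though, and share its estimate of the spread. Across the 3 main comparisons 12 members were lower in every one, against 4.02% of the 10657 genes tested in all of them. These were Pmvk and Fdps of the isoprenoid branch, Cyp51, Msmo1 and Hsd17b7 of the sterol steps, the regulators Srebf1, Srebf2 and Insig1, and Acaca, Fasn, Scd1 and Lpin1 of the lipid genes. Another 10 were lower in 2 of the comparisons and 5 in 1. Idi1, Ebp and Elovl6 were lower in none. With the guides, Srebf1, Srebf2 and Insig1 were called lower over both sets, and not in set 1 alone. Less the median of its chromosome, the change of Insig1 with the guides was 0.070. In the single comparisons 32.7% (guides), 33.6% (wild-type BioNICD) and 17.2% (4-OHT) of all genes were lower. The shares of all genes lower in only 1 or 2 comparisons were not worked out, so the counts of 10 and 5 are not read as a result. The order of sizes differed: Lss and Fdft1 led with the guides, Msmo1 and Insig1 with wild-type BioNICD, and Lpin1 and Insig1 with 4-OHT.

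The DEP and the ethanol-treated cells were themselves below the CRISPR control of set 1 in most members. The DEP mutant cells and the ethanol-treated NICD-ER cells were each set against control replicates 1 and 2, which both comparisons share. With the DEP mutant 17 of 30 members were lower and 1, Ggps1, was higher, against 19.3% and 18.3% of 12277 genes. In NICD-ER cells with ethanol 26 were lower and 1, Scap, was higher, against 24.5% and 24.4%. The medians over the members were -0.28 and -0.68, and over all genes 0.02 and 0.01. The file headers name a different processing folder for the control, BioNICD and NICD-ER samples, so folder, line and plasmid cannot be told apart. Leaving out 1 sample at a time gave 11 to 13 lower members with the DEP mutant and 25 with NICD-ER, with the 11 reached without DEP replicate 2. The higher call of Ggps1 held without DEP replicate 1 and was lost without each of the other samples, and that of Scap was lost without ethanol replicate 1.

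Lss had 433 and 416 CPM in DEP cells and 232 and 225 CPM in ethanol-treated NICD-ER cells, against 613 and 594 CPM in control replicates 1 and 2. Fdft1 had 156 and 146 CPM in DEP cells and 94.9 and 89.6 CPM in ethanol-treated NICD-ER cells, against 225 and 244 CPM in control replicates 1 and 2. Tm7sf2 had 16.1 and 15.5 CPM in DEP cells and 14.1 and 12.3 CPM in ethanol-treated NICD-ER cells, against 23.9 and 27.0 CPM in control replicates 1 and 2. Both lines were below the control pair in all 3 genes, and NICD-ER cells were the lower of the lines. Acat2 had 69.8 and 71.6 CPM in DEP cells and 49.2 and 47.4 CPM in ethanol-treated NICD-ER cells, against 107 and 99.6 CPM in control replicates 1 and 2. Hsd17b7 had 103 and 105 CPM in DEP cells and 111 and 98.2 CPM in ethanol-treated NICD-ER cells, against 165 and 145 CPM in control replicates 1 and 2. Srebf1 had 323 and 314 CPM in DEP cells and 329 and 309.8 CPM in ethanol-treated NICD-ER cells, against 471 and 455 CPM in control replicates 1 and 2. For Hsd17b7 and Srebf1 the lines differed little from each other. The log2 fold changes against the control were -0.51 and -1.42 for Lss, -0.64 and -1.37 for Fdft1, -0.69 and -0.97 for Tm7sf2, -0.55 and -1.12 for Acat2, -0.58 and -0.60 for Hsd17b7, and -0.54 and -0.56 for Srebf1, in DEP and in NICD-ER cells. In DEP cells the median of all genes on chromosome 14, where Fdft1 lies, was -0.21, and less this median its change was -0.43.

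A further 15 members were lower by at least 0.5 in NICD-ER cells with ethanol. Fdps had 142 and 136 CPM in ethanol-treated NICD-ER cells, against 321 and 335 CPM in control replicates 1 and 2. Pmvk had 68.2 and 69.6 CPM in ethanol-treated NICD-ER cells, against 144 and 148 CPM in control replicates 1 and 2. Stard4 had 164 and 185 CPM in ethanol-treated NICD-ER cells, against 375 and 355 CPM in control replicates 1 and 2. These 3 were lower by 1.26, 1.11 and 1.09 on the log2 scale. Scd2 had 3701 and 3735 CPM in ethanol-treated NICD-ER cells, against 7814 and 7522 CPM in control replicates 1 and 2. Scd1 had 278 and 268 CPM in ethanol-treated NICD-ER cells, against 543 and 501 CPM in control replicates 1 and 2. Lpin1 had 258 and 253 CPM in ethanol-treated NICD-ER cells, against 493 and 469.8 CPM in control replicates 1 and 2. The desaturases and Lpin1 were lower by 0.94 to 1.07 on the log2 scale. Sqle had 744 and 719 CPM in ethanol-treated NICD-ER cells, against 1346 and 1327 CPM in control replicates 1 and 2. Nsdhl had 72.0 and 67.3 CPM in ethanol-treated NICD-ER cells, against 127 and 122 CPM in control replicates 1 and 2. Msmo1 had 269.6 and 281 CPM in ethanol-treated NICD-ER cells, against 476 and 468 CPM in control replicates 1 and 2. The sterol steps as a whole were all lower, 10 of 10. Cyp51 had 534 and 554 CPM in ethanol-treated NICD-ER cells, against 930.0 and 887 CPM in control replicates 1 and 2. Insig1 had 487 and 483 CPM in ethanol-treated NICD-ER cells, against 803 and 808 CPM in control replicates 1 and 2. Mvk had 33 and 32.9 CPM in ethanol-treated NICD-ER cells, against 47.9 and 50.3 CPM in control replicates 1 and 2. Each of these was lower in both ethanol samples. Mvd had 73.1 and 70.3 CPM in ethanol-treated NICD-ER cells, against 102 and 108 CPM in control replicates 1 and 2. Dhcr7 had 95.1 and 98.5 CPM in ethanol-treated NICD-ER cells, against 138 and 147 CPM in control replicates 1 and 2. Ebp had 73.8 and 69.7 CPM in ethanol-treated NICD-ER cells, against 99.8 and 100.2 CPM in control replicates 1 and 2. With no chromosome median taken off, these last falls were the smallest, at -0.58, -0.58 and -0.50. The medians of all genes on chromosomes 8 and 12 were 0.38 and 0.30. Less these medians Mvd changed by -0.96 and Msmo1 by -1.18 (chromosome 8), and Lpin1 by -1.24 (chromosome 12). On chromosome 3 the median was -0.12, and less this median Fdps changed by -1.15 and Pmvk by -0.99. Acly (-0.46), Fasn (-0.39) and Elovl6 (-0.36) were also lower, and Idi1, Ggps1 and Acaca gave no call.

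Of the other regulators, Srebf2 had 741 and 706 CPM in DEP cells and 677 and 610.2 CPM in ethanol-treated NICD-ER cells, against 902 and 838 CPM in control replicates 1 and 2. Insig2 had 38.2 and 42.5 CPM in DEP cells and 33.5 and 34.0 CPM in ethanol-treated NICD-ER cells, against 44.4 and 44.5 CPM in control replicates 1 and 2. Scap had 75 and 72.4 CPM in DEP cells and 106 and 96.4 CPM in ethanol-treated NICD-ER cells, against 80.1 and 80.4 CPM in control replicates 1 and 2. Of these samples the ethanol-treated ones were the lowest for Srebf2 and Insig2 and the highest for Scap. Their log2 fold changes against the control were -0.46, -0.42 and 0.31, all called. In DEP cells Srebf2 was lower by 0.27, a call lost without each of the 4 samples (adjusted p = 0.0521 to 0.173), and Insig2 (-0.14) and Scap (-0.13) gave no call. Insig1 had 883 and 873 CPM in DEP cells, a difference of 0.12 from the control (adjusted p = 0.103).

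Further genes of the same routes were read from 4 lists, which were also chosen with earlier results of these data known. The shares over all genes beside these were 32.7% lower and 31.8% higher with the guides, 33.6% and 32.0% with wild-type BioNICD, and 17.2% and 19.0% with 4-OHT. Of the other sterol and fatty acid synthesis enzymes, 10 of 21 tested genes were lower and 3 higher with the guides (median log2 fold change -0.12), 14 lower and 2 higher of 21 with wild-type BioNICD (-0.23) and 10 lower and 3 higher of 21 with 4-OHT (-0.09). Every gene named here from the lists passed the test. Aacs, acetoacetyl-CoA synthetase, fell most among the guide samples, at 101 to 139.8 CPM (median 131) with the guides and at 254 to 297 CPM (median 268) in the control (-1.11). Acacb, the mitochondrial form of acetyl-CoA carboxylase (-0.99), and Fads1, a fatty acid desaturase (-0.72), followed. Acsl3, an acyl-CoA synthetase gene, had 103 and 103 CPM with wild-type BioNICD, against 258 and 276 CPM with the DEP mutant (-1.40). Aacs fell by 0.57 in that comparison. With 4-OHT, Tecr, a reductase of fatty acid elongation (-0.52), and Acacb (-0.38) fell.

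Of the genes of SREBP processing and turnover, with the guides 8 lower and 6 higher of 20, with wild-type BioNICD 10 lower and 5 higher of 20 and with 4-OHT 5 lower and 5 higher of 20 passed the test, with medians of -0.04, -0.11 and 0.00. Over all genes the shares were 32.7% lower and 31.8% higher with the guides, 33.6% and 32.0% with wild-type BioNICD, and 17.2% and 19.0% with 4-OHT. Trib1, a pseudokinase gene, stood at 5.53 to 7.69 CPM (median 7.15) with the guides and at 10.4 to 30.6 CPM (median 29.1) in the control (-1.74), and Paqr3, a Golgi protein that binds SCAP, fell by 1.16. Mbtps1, the first protease that cuts SREBP, rose, standing at 114 to 138 CPM (median 122) with the guides and at 61.9 to 70.0 CPM (median 65.3) in the control (0.90). With wild-type BioNICD, the endoplasmic reticulum protein gene Erlin1 (-0.99) and Paqr3 (-0.89) fell and Sec24d, a coat gene of vesicles leaving the endoplasmic reticulum, rose (0.72). With 4-OHT, Sec24d (0.45) and the ubiquitin ligase gene Rnf139 (0.25) rose and Ubxn6 fell (-0.43).

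Of the genes of sterol uptake, transport and efflux, 2 of 15 tested genes were lower and 5 higher with the guides, 6 lower and 10 higher of 18 with wild-type BioNICD and 7 lower and 4 higher of 18 with 4-OHT. The medians were 0.03, 0.15 and -0.07. The higher genes with the guides, and the lower ones with wild-type BioNICD, were near the shares over all genes (31.8% and 33.6%). Abcg1, a sterol exporter, rose with the guides (1.31), with Mylip, which degrades the LDL receptor (0.52), while the lipoprotein receptor gene Scarb1 fell (-0.67). In the BioNICD comparison Abcg1 rose too, having 46.1 and 49.5 CPM with wild-type BioNICD, against 12.3 and 15.5 CPM with the DEP mutant (1.75). In NICD-ER cells it fell, having 14.2 and 14.7 CPM with 4-OHT, against 22.3 and 22.5 CPM with ethanol (-0.63). The exporter gene thus moved in opposite directions in the 2 NICD comparisons. Abca1, another exporter, had 0.335 and 0.643 CPM with wild-type BioNICD, against 0.141 and 0.236 CPM with the DEP mutant. Vldlr, a lipoprotein receptor gene, had 0.603 and 0.669 CPM with wild-type BioNICD, against 0 and 0.0590 CPM with the DEP mutant. Both passed the test with wild-type BioNICD at very low levels. In NICD-ER cells Abca1 had 0.147 and 0.169 CPM with 4-OHT, against 0.550 and 0.714 CPM with ethanol, and Lipa, the lysosomal lipase, rose (0.80).

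Of the fatty acid oxidation genes, 7 of 14 tested genes were lower and 2 higher with the guides, 1 lower and 5 higher of 16 with wild-type BioNICD and 3 lower and 3 higher of 16 with 4-OHT. The medians were -0.13, 0.05 and -0.02. The higher genes with wild-type BioNICD were near the share over all genes (32.0%), as were both counts with 4-OHT (17.2% lower and 19.0% higher). Cpt1a, which brings fatty acids to the mitochondrion, rose, standing at 183 to 205 CPM (median 201) with the guides and at 68.4 to 77.0 CPM (median 72.5) in the control (1.43), while Etfdh, of electron transfer, (-0.75) and Acads, an acyl-CoA dehydrogenase (-0.35), fell. Acaa2, a thiolase of mitochondrial oxidation, had 131 and 134 CPM with wild-type BioNICD, against 45.5 and 48.1 CPM with the DEP mutant (1.48), and the carnitine carrier gene Slc25a20 (0.64) and Cpt2 (0.61) rose as well. With 4-OHT, Cpt2 (0.34) and Etfdh (0.23) rose and Cpt1a fell (-0.26).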

How the data were processed

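RNA from 20 samples was sequenced as ribosomal-RNA-depleted, stranded total RNA libraries, per the labels' protocols. The authors deposited a table of raw read counts per gene for each library, made with featureCounts 1.5.0 over exons of an mm9 annotation with no strand option, per the file headers. Reads of overlapping genes on either strand therefore cannot be told apart. Trimmomatic, STAR and DESeq2 are also named in the submitters' processing notes.

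Counts were tested with edgeR 4.0.16 and limma 3.58.1 in R 4.3.3 (TMM scaling, filterByExpr, quasi-likelihood test, Benjamini-Hochberg adjustment over all genes tested, threshold 0.05). The guides were compared over 12 samples in a model that also held the submission set. The 2 NICD comparisons used 8 samples, and the DEP and ethanol cells were set against the control over the 12 samples of set 1. SEs are the log2 fold change over the square root of F. Alternatives were DESeq2 1.42.0, other scalings, filters, models and call rules, leaving out samples and a replicate block. The test script was checked on simulated data. The members and lists were chosen with earlier results of these data known. Values in every sample, or the lowest, median and highest of groups of 6, are given for members called with a log2 fold change of at least 0.5 in size and for the SREBP, SCAP and INSIG genes, and at most 3 genes, those with the largest changes, are named per other list and comparison. A gene of these lists is not reported here. Groups follow the sample titles, with which 6 of the 8 descriptions of set 2 samples disagree. Replicates within a group differed by more than counting noise, and no sample was left out.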

Additional observations from a re-analysis of the deposited data

Results flagged for a closer look

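Of 60 groups of 6 samples, that is 30 members in the guide and in the control samples, 5 held 1 sample far from the others by Dixon's test. The nominal rate of the test is 1 in 20 groups, or about 3 of these 60, for samples drawn from 1 normal distribution. Each group joins samples of both sets and all members were read in the same samples, so that rate need not hold here. Guide replicate 2 was the low sample for Mvk, at 22.8 CPM, and for Fdps, at 156 CPM. Guide replicate 1 was the low sample for Msmo1, at 255 CPM, and for Elovl6, at 35.1 CPM. Control replicate 5 was apart for Idi1, at 3.51 CPM.

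The guide effect differed between the submission sets in 9 members by the interaction test in edgeR. Set 2 minus set 1, the difference in log2 fold change was 0.68 for Acat2, 0.50 for Fdft1, 0.35 for Cyp51, 0.55 for Nsdhl, 0.55 for Hsd17b7, 0.47 for Scap, 0.41 for Acaca, 0.97 for Elovl6 and -0.30 for Lpin1.

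The 2 NICD comparisons differed in 22 members by the test of the difference. In the isoprenoid branch, the NICD-ER minus the BioNICD log2 fold change was 0.57 for Acat2, 0.41 for Pmvk, 0.55 for Mvd and 0.29 for Fdps. In the sterol steps, the NICD-ER minus the BioNICD log2 fold change was -0.32 for Fdft1, 0.30 for Sqle, 0.57 for Lss, 0.72 for Cyp51, 1.09 for Msmo1, 0.24 for Hsd17b7 and 0.18 for Dhcr7. In regulation and transport, the NICD-ER minus the BioNICD log2 fold change was 0.38 for Srebf2, -0.44 for Scap, 0.67 for Insig1, 0.37 for Insig2 and 0.89 for Stard4. In fatty acid and glycerolipid synthesis, the NICD-ER minus the BioNICD log2 fold change was 0.30 for Acly, 0.23 for Fasn, -0.21 for Elovl6, 0.57 for Scd1, 0.42 for Scd2 and 0.31 for Lpin1.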

How the results depend on the processing

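Fold changes were recomputed for members called with a log2 fold change of at least 0.5 in size. The SREBP, SCAP and INSIG genes were added. Under the alternatives with a test, they kept direction and side of the threshold in 1258 of 1287 cases over 97 values. Values chosen for their size tend to keep their calls, and the smaller calls of other members were not followed one by one. Of the others 14 lost the call, 14 gained it and 1, Scap in set 2 alone with the guides, reversed to 0.14. Srebf1, Srebf2, Insig1 and Insig2 lost their calls in set 1 alone, and Srebf1 and Insig1 without the set covariate. Less the median of its chromosome, Insig1 changed by 0.070 with the guides. The cause was not tested.

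Lower members with the guides were 15 where a log2 fold change of 0.5 was also asked for, and 19 to 27 otherwise. Set 2 alone gave 1 higher one. Leaving out 1 sample gave 25 to 26 lower and 0 higher. The same size rule left 2 lower and 0 higher with 4-OHT, 13 and 1 with wild-type BioNICD, 6 and 0 in DEP cells and 0 higher in ethanol-treated NICD-ER cells. Higher members with wild-type BioNICD were 1 under upper quartile scaling and 1 in a model over all 20 samples. In DEP cells upper quartile scaling gave 2 higher. Leaving out 1 sample gave 1 to 2 higher with 4-OHT, 1 to 2 with wild-type BioNICD, 0 to 1 higher and 11 to 13 lower in DEP cells, and 0 to 1 higher in ethanol-treated NICD-ER cells.

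For the set difference, leaving out 1 sample gave 5 to 12 higher and 0 to 4 lower members, DESeq2 gave 2 lower and no filter 4 lower. Of the alternatives chosen after seeing the data, leaving out control replicate 1 and guide replicate 1 gave 3 lower, and leaving out the 3 samples highest in Rn45s gave 5 higher and 0 lower.

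With the replicate number as a block, 25 members were lower and 0 higher with the guides, 16 and 3 with 4-OHT, where Insig2 gained a call (adjusted p = 0.0398 in edgeR), and 21 and 2 with wild-type BioNICD. Samples of equal number correlated at -0.142 to 0.228 in the CRISPR groups, at -0.0112 in BioNICD and at 0.236 in NICD-ER, so the numbers were not taken as pairs. With groups of 2, leaving out a sample leaves 1 that is assumed to vary like the other groups. The annotation limits Hmgcs1, and low counts limit Idi1.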
